A study of Homo sapiens with 52 samples.

Results

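Epithelial and mesenchymal marker genes were followed by RNA sequencing in 2 hepatoblastoma lines under 2 inhibitors and in macrophages grown with those lines. The set held 10 genes, found by symbol among the 62696 gene rows of the tumour line table and the 61209 of the macrophage table, and all 10 were present in both. The epithelial members were EPCAM, CDH1, KRT8, KRT18, KRT19 and CLDN1, and the mesenchymal members were CDH2, VIM, SNAI2 and ZEB1. HepG2 and Huh6 are established hepatoblastoma lines. THP-1 is a monocytic leukaemia line, differentiated here into macrophages with phorbol ester. PKF118-310 is an antagonist of the Wnt pathway and iMDK an inhibitor of midkine, a secreted growth factor, and the study used them to ask how both signals shape the immune environment of the tumour.

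The HepG2 groups were PKF118-310 at 0.2 µM, PKF118-310 at 0.3 µM, iMDK at 5 µM, iMDK at 10 µM and the empty vehicle, and the Huh6 groups were the same with PKF118-310 at 0.4 µM added. Tumour cells were treated for 48 hours. The THP-1 groups were macrophages cultured for 24 hours with HepG2 or with Huh6 cells, each given 5 µM or 10 µM iMDK for 24 hours beforehand or left without it, and macrophages kept alone. THP-1 cells were sorted before their RNA was taken. Each group had 3 libraries, except HepG2 at 0.3 µM PKF118-310 with 1 library, the other samples having yielded too little RNA, whose values are given without a test. The labels do not say whether the libraries of a group came from separate cultures, so p-values measure the spread between libraries, which may be technical. The 52 libraries held 18172462 to 19912509 counts in Huh6, 18284605 to 20043105 in HepG2 and 12623973 to 16940245 in THP-1. Levels are CPM, the count of a gene scaled to the library total with TMM factors, where 3 counts correspond to 0.15 to 0.165 CPM in the tumour lines. Differences are log2 fold changes ± SE from the quasi-likelihood F test of edgeR with Benjamini-Hochberg adjustment over all genes tested, called below an adjusted p of 0.05.

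Epithelial cells hold together through adherens junctions built on cadherins, through tight junctions built on claudins, and through an internal network of keratin filaments. Mesenchymal cells carry vimentin filaments and N-cadherin in their place, and the transcription factors of the Snail and ZEB families bind E-box sequences in promoters of epithelial genes such as CDH1 and repress them. In liver, hepatocytes make the keratin pair 8 and 18, N-cadherin as well as E-cadherin, while keratin 19 and EPCAM mark bile duct cells and the progenitors that hepatoblastoma resembles.

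The promoters of 3 members are shown because these genes differed most in level between the lines (CLDN1 and ZEB1) or fell most in treated HepG2 (CDH2). Each is the RefSeq sequence of the 250 bases before a start site on GRCh38.p14, read 5′ to 3′ on the gene's strand, and capitals mark the E-box CAGGTG or its reverse complement CACCTG.
CLDN1, chr3:190322447-190322696, minus strand: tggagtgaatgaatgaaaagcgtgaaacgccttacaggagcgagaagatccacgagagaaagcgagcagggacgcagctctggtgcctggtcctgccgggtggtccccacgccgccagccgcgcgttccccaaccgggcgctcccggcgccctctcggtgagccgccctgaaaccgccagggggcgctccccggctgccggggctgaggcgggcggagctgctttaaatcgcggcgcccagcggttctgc
CDH2, chr18:28177131-28177380, minus strand: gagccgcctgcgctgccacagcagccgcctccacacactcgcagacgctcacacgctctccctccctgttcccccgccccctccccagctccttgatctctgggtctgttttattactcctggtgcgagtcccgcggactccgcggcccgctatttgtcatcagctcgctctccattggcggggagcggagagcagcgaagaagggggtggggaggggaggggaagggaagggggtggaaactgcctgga
ZEB1, chr10:31318966-31319215, plus strand: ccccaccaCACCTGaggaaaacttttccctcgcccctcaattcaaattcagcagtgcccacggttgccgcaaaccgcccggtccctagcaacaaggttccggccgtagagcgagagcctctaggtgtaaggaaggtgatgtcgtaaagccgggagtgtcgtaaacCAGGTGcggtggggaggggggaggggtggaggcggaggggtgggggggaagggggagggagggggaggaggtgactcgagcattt
The E-box was found on either strand in 17.5% of 35116 such windows of all genes. It was absent from the CLDN1 and CDH2 windows shown and from the other CDH2 window listed. It occurred 2 times in the ZEB1 window shown, the most among the 7 listed for that gene. Of the other ZEB1 windows 1 held it 1 time and the rest 0 times. These letters are a description of the window and not a measured site. The TCF motif CTTTGAT, held by 2.26% of the windows, and the AP-1 motif TGAGTCA, held by 4.2%, were searched on both strands in the same way and matched none of the 3.

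In vehicle-treated cells the lines differed in 8 of the 8 members tested, with CLDN1 and ZEB1 higher in HepG2 and EPCAM, CDH1, KRT8, KRT18, KRT19 and CDH2 lower. Of the 14469 genes tested, 40.4% were higher and 42.6% lower in HepG2, 83% in all, so that most genes differed between the lines. ZEB1 passed the filter on low counts through HepG2 alone, so its call there carries no weight, and VIM and SNAI2 had too few counts to be tested. Among the mesenchymal members ZEB1 was the higher one in HepG2 and CDH2 the lower one.

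CDH1 encodes E-cadherin, the adherens junction protein of epithelia, and lies at chr16:68737225-68835548 (GENCODE 29, GRCh38). It had 34.8, 37 and 40.1 CPM in HepG2 and 504, 508 and 504 CPM in Huh6. The line groups did not overlap, and the difference was -3.80 ± 0.04 (adjusted p = 1.94e-34). EPCAM, an adhesion molecule of simple epithelia at chr2:47345158-47387601, had 303, 300.1 and 321 CPM in HepG2 and 1112, 1178 and 1145 CPM in Huh6, a difference of -1.93 ± 0.03 (adjusted p = 9.53e-30). CLDN1, the tight junction strand protein claudin 1 at chr3:190305701-190322475, had 149.6, 153 and 151 CPM in HepG2 and 4.4, 5.56 and 4.08 CPM in Huh6. It was the one epithelial member that was higher in HepG2, by 4.98 ± 0.07 (adjusted p = 1.34e-31).

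The keratins of simple epithelia were all lower in HepG2. KRT8 (chr12:52897187-52949954) and KRT18 (chr12:52948871-52952901) form the paired filament of hepatocytes, and KRT19 (chr17:41523617-41528308) is the keratin of bile ducts and progenitors. KRT8 had 1733, 1710.2 and 1795 CPM in HepG2 and 6094, 5868 and 5842 CPM in Huh6. KRT18 had 767, 785 and 798 CPM in HepG2 and 2399.7, 2251 and 2286 CPM in Huh6. KRT19 had 432, 449 and 474 CPM in HepG2 and 1939, 1914 and 1855 CPM in Huh6. No keratin library of one line came within the range of the other, with differences of -1.80 ± 0.03, -1.60 ± 0.03 and -2.11 ± 0.03 for KRT8, KRT18 and KRT19. KRT8 and KRT18 overlap by 1084 bases on opposite strands, and the strand setting of the counting is not given, so a small part of either count may come from the other gene.

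Of the mesenchymal members, CDH2 encodes N-cadherin (chr18:27950966-28177446) and had 113, 109 and 106 CPM in HepG2 and 395, 413 and 405 CPM in Huh6, a difference of -1.92 ± 0.03 (adjusted p = 4.32e-29). ZEB1 (chr10:31318495-31529814), a repressor of CDH1, had 29.8, 28 and 33 CPM in HepG2, and its Huh6 vehicle libraries held 0, 1 and 5 counts. The Huh6 group held 6 counts in all, and no fold is given for it. VIM (chr10:17228259-17237593), the vimentin filament gene, had 0 counts in each HepG2 vehicle library and 12, 7 and 10 counts in Huh6, which made it at least 9.51-fold lower in HepG2 when 3 counts are allowed over that group. SNAI2 (chr8:48917604-48921740), the Snail family factor Slug, had 0 counts in each HepG2 vehicle library and 1, 6 and 5 counts in Huh6, and was at least 3.93-fold lower in HepG2 on the same allowance. These bounds cover counting error only.

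Per kilobase of exon, the order of levels differed between the lines. In HepG2 KRT18 stood at 390.0 ± 7.66, KRT8 at 381 ± 9.54 and KRT19 at 325 ± 15.2 CPM per kb (SD, n = 3), and the means of KRT18 and KRT8 lay within their spread of each other. Below them came EPCAM at 153 ± 5.69, CLDN1 at 43.5 ± 0.551, CDH2 at 24.6 ± 0.774, CDH1 at 7.5 ± 0.534 and ZEB1 at 4.7 ± 0.392 CPM per kb. In Huh6 the keratins KRT19, KRT8 and KRT18 stood at 1369 ± 31.1, 1295 ± 30.3 and 1151 ± 38.8 CPM per kb, ahead of EPCAM at 569.8 ± 16.3. CDH1 and CDH2 followed in Huh6 at 102 ± 0.46 and 90.9 ± 1.97 CPM per kb, and CLDN1 at 1.34 ± 0.224. N-cadherin thus had a higher level per length than E-cadherin in HepG2 and a slightly lower one in Huh6.

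**Figure D1:**
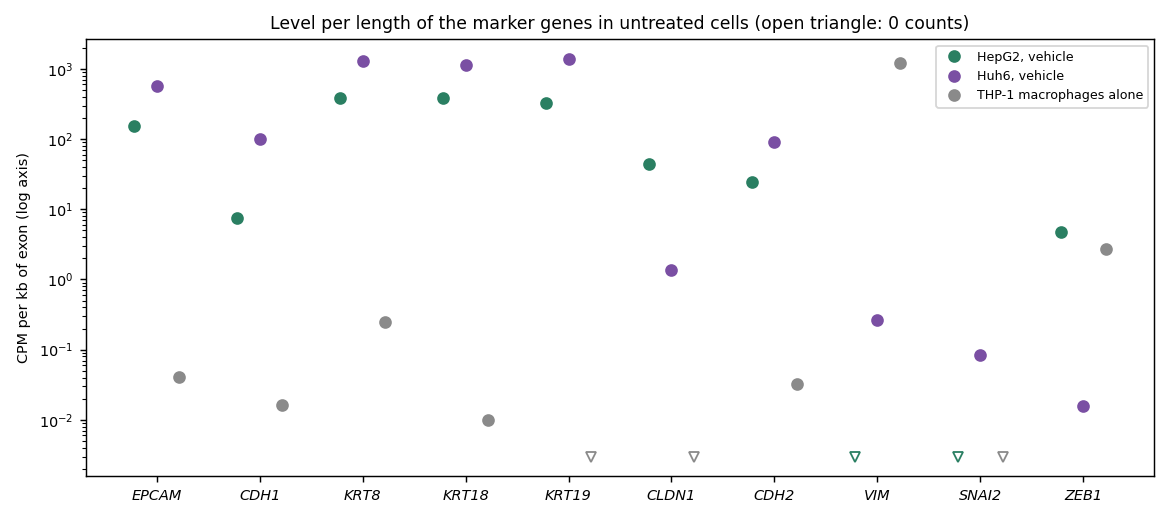
Mean level per length of each member in vehicle-treated HepG2, vehicle-treated Huh6 and THP-1 macrophages alone, as CPM per kb of exon on a log axis, with open triangles for groups with 0 counts in 3 libraries. VIM stands high in THP-1 and at or near 0 in both tumour lines, while the keratins and EPCAM show the reverse.

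The other epithelial genes of fixed lists were mostly lower in HepG2 too. Of 27 tested genes of junctions and adhesion, 5 were higher and 20 lower in HepG2 (median log2 fold change -1.06, against -0.03 over all genes). The serine protease ST14 had 3.65 ± 0.73 CPM in HepG2 and 175 ± 7.52 CPM in Huh6, and the tight junction protein CGN had 4.06 ± 0.518 CPM in HepG2 and 192 ± 2.77 CPM in Huh6 (SD, n = 3 each). Of 14 epithelial transcription and splicing regulators, 3 were higher and 10 lower (median -0.76), and of 8 cadherins and catenins 1 was higher and 6 were lower (median -1.17). Of 2 other keratins tested 0 were called by edgeR, and of 4 mesenchymal transcription factors 1 was higher and 1 lower. The mesenchymal matrix and cytoskeleton list moved both ways, with 12 of 26 tested genes higher and 14 lower (median -0.38). Of 15 TGF-beta genes 5 were higher and 10 lower (median -0.47). TGFBR2, the type II receptor for TGF-beta, had 545 ± 16.2 CPM in HepG2 and 49.8 ± 1.35 CPM in Huh6.

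PKF118-310 at 0.2 µM changed all 8 tested members in HepG2, where 72% of the 14111 genes tested were called, 35.9% higher and 36.1% lower. KRT19 and ZEB1 rose, while CDH2, CDH1, CLDN1, EPCAM, KRT8 and KRT18 fell. Both cadherins fell, and the keratins moved in both directions. In these bulk samples fewer cells of a kind and less RNA per cell cannot be told apart.

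KRT19 had 1818, 1806 and 1801 CPM under 0.2 µM PKF118-310 and 432, 449 and 474 CPM under vehicle in HepG2. The treated libraries lay far above the vehicle libraries, and the log2 fold change was 2.0 ± 0.03 (adjusted p = 1.51e-34). KRT8 had 1447, 1407 and 1383 CPM in treated cells and 1733, 1710.2 and 1795 CPM under vehicle (-0.31 ± 0.03), and KRT18 had 721, 734 and 703 CPM in treated cells and 767, 785 and 798 CPM under vehicle (-0.12 ± 0.03, adjusted p = 0.000303). Treated and vehicle libraries of KRT8 and of KRT18 did not overlap, although the falls were small. The ratio of KRT19 to KRT18 counts was 2.52 on average in treated HepG2, against 0.577 under vehicle.

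CDH1 had 15.7, 18 and 17.9 CPM in treated HepG2 and 34.8, 37 and 40.1 CPM under vehicle, a log2 fold change of -1.11 ± 0.07 (adjusted p = 1.73e-16). CDH2 had 42.2, 40.9 and 40.2 CPM in treated HepG2 and 113, 109 and 106 CPM under vehicle, which was the steepest fall of the set at -1.41 ± 0.04 (adjusted p = 1.33e-25). For both cadherin genes every treated library lay below every vehicle library. CLDN1 had 90, 88 and 86.2 CPM in treated HepG2 and 149.6, 153 and 151 CPM under vehicle (-0.78 ± 0.04). EPCAM had 222, 213 and 217 CPM in treated HepG2 and 303, 300.1 and 321 CPM under vehicle (-0.50 ± 0.03).

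ZEB1 had 42.5, 42 and 46.1 CPM in treated HepG2 and 29.8, 28 and 33 CPM under vehicle, and rose by 0.53 ± 0.07 on the log2 scale (adjusted p = 9.59e-09). SNAI2 had 4, 3 and 1 counts in the treated libraries and 0 in each vehicle library, at least 2.45-fold higher when 3 counts are allowed over the vehicle group. VIM had 1, 1 and 0 counts in treated and 0 in vehicle libraries, which is at or under that allowance. The single library at 0.3 µM held 1492 CPM of KRT19, 42.9 of CDH2, 27.5 of CDH1, 81.5 of CLDN1 and 30.6 of ZEB1. It lay with the 0.2 µM libraries for CDH2 and within the vehicle range for ZEB1, and it was not tested.

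**Figure D2:**
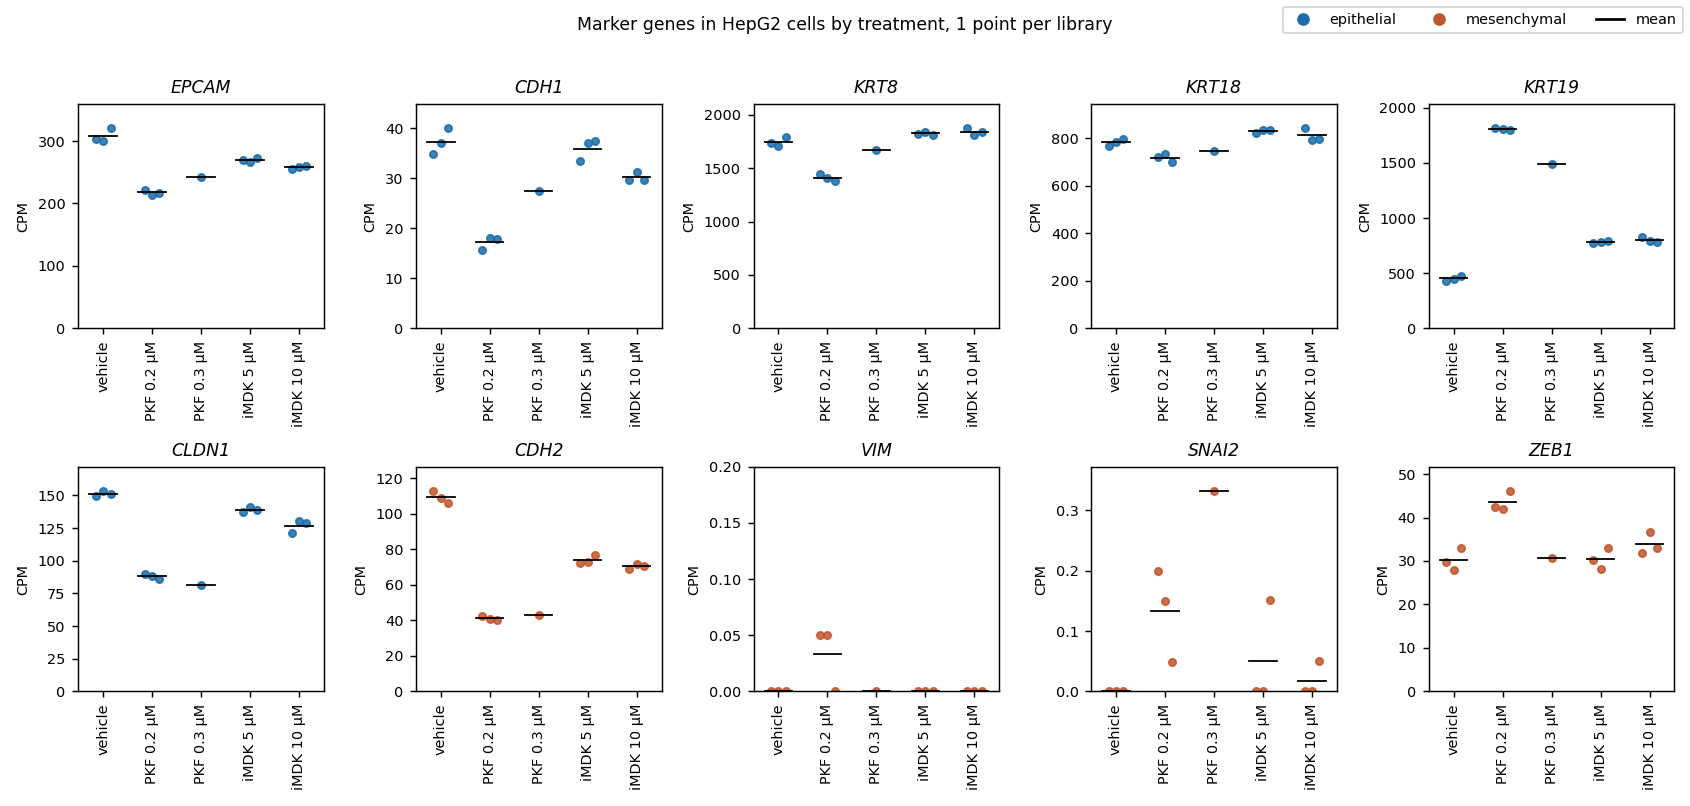
CPM of each member in HepG2 by treatment, with 1 point per library and a line at the mean of each group, on linear axes from 0 (PKF is PKF118-310). KRT19 stands highest and CDH2 lowest at 0.2 µM PKF118-310, and the PKF118-310 group at 0.3 µM has 1 library.

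Among the other keratins, 4 of 4 tested genes were called higher in HepG2 under 0.2 µM PKF118-310 (median 1.95). KRT7 and KRT17 among them had too few counts under vehicle to pass the filter through that group. Their calls carry no weight, and the count of 4 and the median are not read as a result. KRT7, a duct keratin, had 2.06 ± 0.174 CPM in treated cells and 0.314 ± 0.312 CPM under vehicle, and KRT10 had 36.4 ± 0.417 CPM in treated cells and 22.8 ± 3.83 CPM under vehicle (SD, n = 3 each). Of 26 tested junction and adhesion genes, 16 rose and 6 fell (median 0.31, against -0.01 over all genes). PARD6B, a polarity protein, rose by 1.42 ± 0.06, and TJP3 and the receptor ERBB3 changed by -2.01 ± 0.14 and -1.99 ± 0.04. Of 6 tested cadherins and catenins, JUP (0.64 ± 0.04) and CTNNA1 (0.60 ± 0.03) rose and CTNNB1 (-0.15 ± 0.03), the Wnt effector beta-catenin, fell (median 0.49).

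Of 11 epithelial regulators tested in HepG2 under 0.2 µM PKF118-310, KLF4 and KLF5 rose and 7 fell (median -0.23). KLF4 had 9.62 ± 0.232 CPM in treated cells and 1 ± 0.322 CPM under vehicle, while the liver factors HNF4A (-0.99 ± 0.03) and FOXA1 (-1.23 ± 0.04) fell. Of 4 tested mesenchymal transcription factors 3 were called higher, namely ZEB2 (2.41 ± 0.52), SNAI1 (1.84 ± 0.12) and FOXC1 (1.70 ± 0.09). The ZEB2 change had a wide SE. Whether ZEB2 passed the filter through the vehicle group is not given, so that call is not read as a result. The mesenchymal matrix, cytoskeleton and surface list moved both ways, with 11 of 22 genes higher and 7 lower (median 0.20). AXL, a receptor tyrosine kinase, had 233 ± 2.41 CPM in treated cells and 17 ± 0.794 CPM under vehicle. LOX, a collagen cross-linking enzyme, fell by 3.11 on the log2 scale. Of 14 TGF-beta genes, 6 rose and 6 fell (median -0.01), among them PMEPA1 (4.0 ± 0.33) and ID1 (-1.06 ± 0.04). Whether PMEPA1 passed the filter through the vehicle group is likewise not given. The 21 hepatoblastoma markers summed to 8747 to 9631 CPM in treated HepG2 and 37730 to 41180 CPM under vehicle, with 20 of 20 tested genes lower and VTN at 0. The 11 fibroblast and endothelial markers summed to 42.5 to 51.1 CPM in treated HepG2 and 36.5 to 39 CPM under vehicle, with PDGFRA and KDR at 0 in both. The 14 macrophage markers summed to 239 to 277 CPM in treated HepG2 and 1174 to 1320 CPM under vehicle, with CD68 and CYBB at 0 in every library of the tumour lines. The part of these markers in the member changes was not tested.

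Under iMDK KRT19 rose and CDH2, CLDN1 and EPCAM fell in HepG2 at both doses. At 5 µM 2 of 8 members were higher and 3 lower (25.6% and 26% of genes, 51.6% in all), and at 10 µM 3 were higher and 4 lower (30% and 29% of genes, 58.9% in all). KRT19 had 770.2, 781 and 793 CPM at 5 µM and 827, 792 and 782 CPM at 10 µM, against 432, 449 and 474 CPM under vehicle. The log2 fold change was 0.79 ± 0.03 at 5 µM and 0.82 ± 0.03 at 10 µM (adjusted p = 1.59e-22), and the difference between the doses, 10 µM minus 5 µM, was not called (95% interval -0.03 to 0.09). CDH2 had 72.3, 72.9 and 77.1 CPM at 5 µM and 69.1, 71.6 and 70.8 CPM at 10 µM, and fell by 0.56 and 0.63 on the log2 scale. Every iMDK library was above the vehicle range for KRT19 and below it for CDH2.

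CDH1 had 33.4, 37.1 and 37.4 CPM at 5 µM iMDK and 29.7, 31.2 and 29.6 CPM at 10 µM in HepG2. It was called at 10 µM (-0.30 ± 0.06, adjusted p = 0.00013) and not at 5 µM (-0.05 ± 0.06), and the doses differed by -0.25 ± 0.06 (adjusted p = 0.00544), in a comparison in which 7.59% of genes were higher and 7.46% lower, 15% in all. CLDN1 changed by -0.12 ± 0.04 and -0.26 ± 0.04, and EPCAM by -0.19 ± 0.03 and -0.25 ± 0.03, at 5 and 10 µM. KRT8 changed by 0.06 ± 0.03 and 0.08 ± 0.03, and KRT18 by 0.09 ± 0.03 and 0.05 ± 0.03, at 5 and 10 µM, of which KRT18 at 5 µM and KRT8 at 10 µM were called. The KRT18 call ended without vehicle replicate 1 (adjusted p = 0.0712). KRT8 at 10 µM and ZEB1 at 10 µM (0.16 ± 0.07, adjusted p = 0.0416) each lost the call when any of 3 libraries was left out and without the filter (adjusted p = 0.066 and 0.0659), and ZEB1 also with DESeq2 (adjusted p = 0.143).

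Of 4 other keratins tested in HepG2 at 10 µM iMDK 2 were called higher (median 0.92). Among these KRT17, a keratin of stressed epithelium, had 90.5 ± 5.75 CPM at 10 µM and 0.466 ± 0.104 CPM under vehicle. It had too few counts under vehicle to pass the filter through that group, so its call carries no weight. Of the epithelial regulators 4 of 11 rose and 5 fell (median 0.06), and KLF4 had 34.7 ± 1.9 CPM at 10 µM against 1 ± 0.322 CPM under vehicle. Of 26 junction genes 9 rose and 7 fell (median 0.08, against 0.02 over all genes), with CLDN4 at 319 ± 16.7 CPM under 10 µM iMDK and 93.7 ± 1.58 CPM under vehicle. Of 4 mesenchymal transcription factors SNAI1 and FOXC1 rose (0.73 ± 0.13 and 0.97 ± 0.09) and 1 fell, and of 6 cadherins and catenins 2 rose and 2 fell. In the matrix list 10 of 22 genes rose and 7 fell (median 0.10), and LOX changed by -1.27 ± 0.12. The hepatoblastoma markers summed to 27320 to 27910 CPM at 10 µM, against 37730 to 41180 CPM under vehicle, with 4 of 20 tested genes higher and 15 lower, and their part was not tested. Of 14 TGF-beta genes 3 rose and 8 fell (median -0.12).

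In Huh6 under PKF118-310 KRT8 and KRT18 rose at each dose, while EPCAM, CDH1 and CDH2 had log2 fold changes between -0.08 and 0.06. At 0.2 µM 3 of 9 tested members were higher and 0 lower (1.04% and 1.2% of 15029 genes, 2.24% in all). At 0.3 µM 4 were higher and 1 lower (15% and 13.5% of genes, 28.5% in all), and at 0.4 µM 5 were higher and 2 lower (28.9% and 27.9% of genes, 56.8% in all). SNAI2 was counted among the higher ones at 0.3 and 0.4 µM, and VIM at 0.4 µM. Neither had enough counts under vehicle to pass the filter through that group, so their calls against vehicle carry no weight.

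KRT8 had 6094, 5868 and 5842 CPM under vehicle, 6509.7, 6544 and 6592 at 0.2 µM, 7956, 7866 and 8065 at 0.3 µM and 9330.1, 9668 and 9684 CPM at 0.4 µM. Each dose lay above the dose before it in every library, and the log2 fold changes against vehicle were 0.14 ± 0.02, 0.42 ± 0.02 and 0.69 ± 0.02. KRT18 had 2399.7, 2251 and 2286 CPM under vehicle, 2490.1, 2568 and 2509.6 at 0.2 µM, 3089.5, 3139 and 3164 at 0.3 µM and 4037, 4004 and 4129 at 0.4 µM, with changes of 0.13 ± 0.02, 0.44 ± 0.02 and 0.81 ± 0.02. The 0.4 and 0.2 µM groups differed by 0.69 ± 0.02 for KRT18 and 0.55 ± 0.02 for KRT8 (adjusted p = 3.25e-27 and 3.81e-26), where 28.1% of genes were higher and 26.5% lower, 54.6% in all.

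KRT19 took another course in Huh6, with 1939, 1914 and 1855 CPM under vehicle, 2067, 2031 and 2041 at 0.2 µM, 2025, 1974 and 2034 at 0.3 µM and 1623, 1667 and 1709 CPM at 0.4 µM. It was slightly higher at the lower doses (0.10 ± 0.02 and 0.08 ± 0.02), calls that both ended without vehicle replicate 3 (adjusted p = 0.0505 and 0.0546), and lower at 0.4 µM (-0.19 ± 0.02, adjusted p = 3.57e-10). The ratio of KRT19 to KRT18 counts was 0.411 at 0.4 µM, against 0.823 under vehicle. The ratio of KRT8 to KRT18 counts moved less, at 2.36 at 0.4 µM, against 2.57 under vehicle.

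VIM had 23, 52 and 41 counts at 0.4 µM and 12, 7 and 10 counts under vehicle in Huh6, a log2 fold change of 2.05 ± 0.35. The treated libraries all lay above the vehicle libraries, at 1.21 to 2.77 CPM. VIM had too few counts under vehicle to pass the filter through that group, so its call as higher carries no weight. SNAI2 had 15, 14 and 13 counts at 0.4 µM and 1, 6 and 5 counts under vehicle. It passed the filter through treated libraries alone, so its call as higher carries no weight. By counting error the sums over 3 libraries differed 4.19-fold for VIM (95% interval 2.77 to 6.53) and 3.67-fold for SNAI2 (1.9 to 7.65). At 0.3 µM SNAI2 had 13, 13 and 9 counts, and its call as higher carries no weight for the same reason. That call was also lost when any of 3 libraries was left out (adjusted p = 0.143 without vehicle replicate 1). Between 0.4 and 0.2 µM the SNAI2 call (adjusted p = 0.0384) was lost with DESeq2 (adjusted p = 0.0963) and when any of 5 libraries was left out. The 0.2 µM libraries held 11, 6 and 3 counts, too few to pass the filter through that group, so this call carries no weight either. ZEB1 was not tested in Huh6, and its sums were 16 counts at 0.4 µM and 6 under vehicle.

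EPCAM had 1213, 1163 and 1199.5 CPM at 0.4 µM and 1112, 1178 and 1145 CPM under vehicle in Huh6, and CDH1 had 466, 493 and 493 CPM at 0.4 µM and 504, 508 and 504 CPM under vehicle. Both were called at 0.4 µM with changes of 0.06 ± 0.02 and -0.06 ± 0.02, and each lost its call when any of 4 libraries was left out. CDH2 changed by -0.05 ± 0.02 (adjusted p = 0.0531) and CLDN1 by -0.34 ± 0.17 (adjusted p = 0.0856), and neither was called. CLDN1 had 3.47, 2.7 and 3.19 CPM at 0.3 µM and 4.4, 5.56 and 4.08 CPM under vehicle and was called lower there (-0.58 ± 0.18), a call lost without vehicle replicate 2 or the second library at 0.3 µM.

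**Figure D3:**
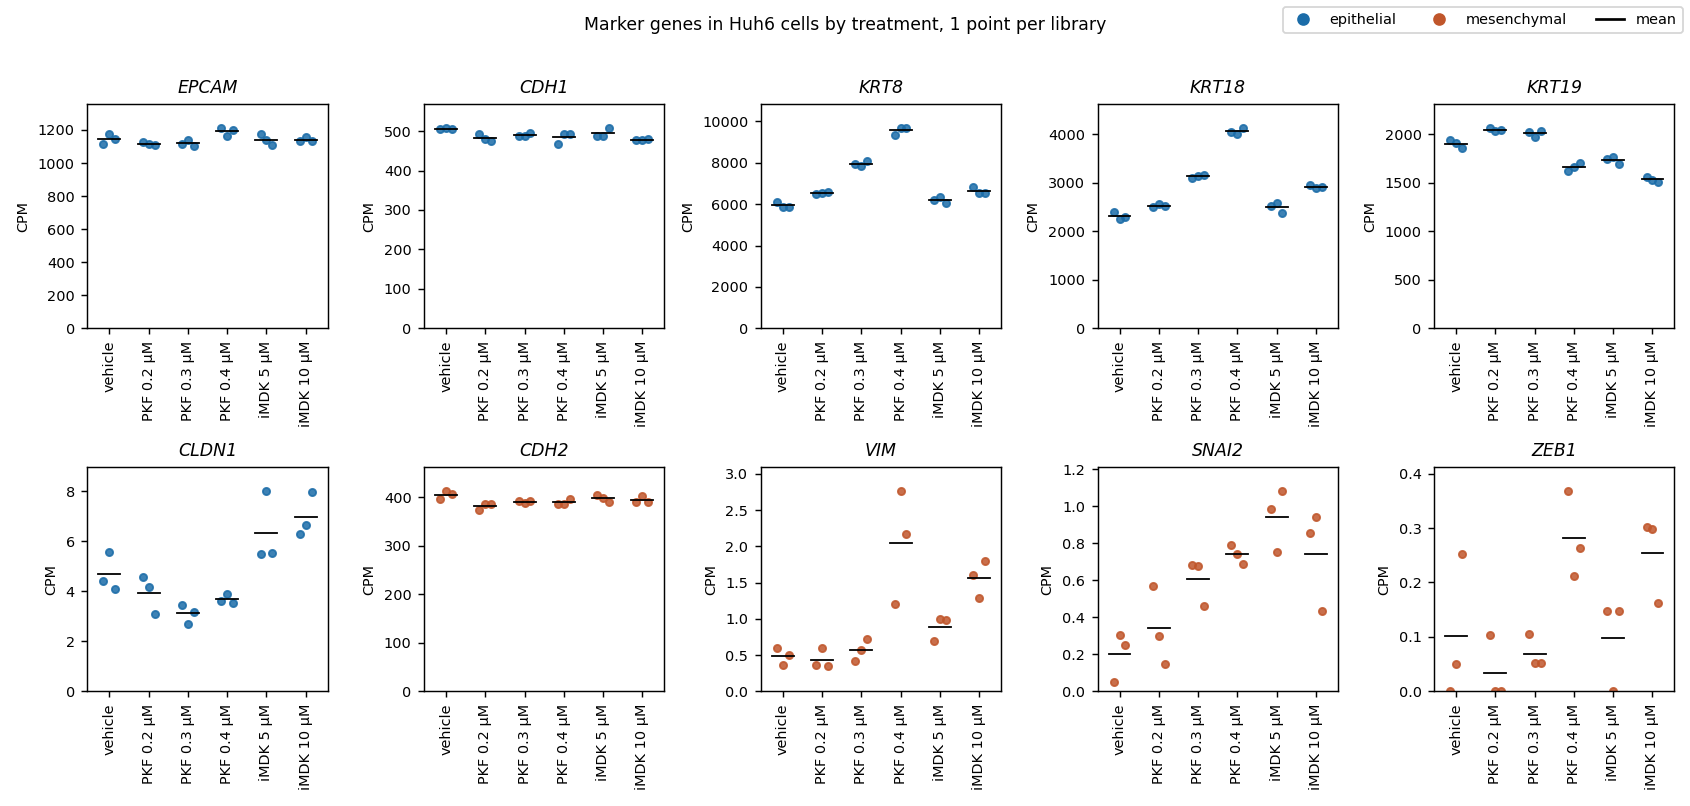
CPM of each member in Huh6 by treatment, with 1 point per library and a line at the mean of each group, on linear axes from 0 (PKF is PKF118-310). KRT8 and KRT18 stand higher at each PKF118-310 dose, EPCAM, CDH1 and CDH2 stay near the vehicle level, and VIM, SNAI2 and ZEB1 lie below 3 CPM.

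Of the lists at 0.4 µM in Huh6, 15 of 27 junction genes rose and 5 fell (median 0.13, against -0.01 over all genes), the falls including ERBB3 (-1.21 ± 0.04) and TJP3 (-0.79 ± 0.05). Of 14 epithelial regulators 6 rose and 7 fell (median -0.12), with ELF3 (1.21 ± 0.11) and KLF5 (1.13 ± 0.08) higher. Of 9 cadherins and catenins 4 rose and 2 fell (median 0.07), and CDH17, an intestinal cadherin, had 606 ± 9.29 CPM at 0.4 µM and 1353 ± 8.69 CPM under vehicle. Of 25 mesenchymal matrix and cytoskeleton genes 12 rose and 10 fell (median 0.30). TAGLN, an actin-binding protein of smooth muscle, had 131 ± 3.76 CPM at 0.4 µM and 9.49 ± 0.435 CPM under vehicle. Of 3 tested mesenchymal transcription factors SNAI1 (0.55 ± 0.13) and FOXC1 (0.52 ± 0.09) rose. Of 2 other keratins tested KRT10 rose (0.90 ± 0.06). Of 16 TGF-beta genes 9 rose and 5 fell (median 0.19), and PMEPA1, a feedback inhibitor, rose by 3.23 ± 0.29. The hepatoblastoma marker sum was 7609 to 8695 CPM at 0.4 µM and 13430 to 13530 CPM under vehicle, with 19 of 19 tested genes lower. The fibroblast and endothelial markers summed to 439 to 459 CPM at 0.4 µM, 292 to 297 CPM at 10 µM iMDK and 542 to 556 CPM under vehicle, and the macrophage markers to 112 to 121, 125 to 128 and 89.1 to 92.5 CPM in the same groups. The part of these markers was not tested.

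Under iMDK KRT19 fell in Huh6 while KRT8, KRT18 and CLDN1 rose at both doses. At 5 µM 4 of 9 tested members were higher and 1 lower (17.3% and 18.3% of genes, 35.6% in all), and at 10 µM 5 were higher and 2 lower (26% and 26.1% of genes, 52.1% in all). SNAI2 was counted among the higher ones at both doses, and VIM at 10 µM. Neither had enough counts under vehicle to pass the filter through that group, so these calls carry no weight. KRT19 had 1747, 1763 and 1694 CPM at 5 µM and 1565, 1526 and 1513 CPM at 10 µM, against 1939, 1914 and 1855 CPM under vehicle, and changed by -0.13 ± 0.02 and -0.31 ± 0.02. KRT18 had 2942, 2885 and 2921 CPM at 10 µM and 2399.7, 2251 and 2286 CPM under vehicle (0.33 ± 0.02), and KRT8 changed by 0.16 ± 0.02. The KRT8 call at 5 µM (0.07 ± 0.02) ended without replicate 2 at 5 µM (adjusted p = 0.0615). At 10 µM the libraries of all 3 keratins lay outside the vehicle range, KRT19 below it and the others above it. CLDN1 had 6.27, 6.64 and 7.99 CPM at 10 µM and 4.4, 5.56 and 4.08 CPM under vehicle, and rose by 0.57 ± 0.16 (adjusted p = 0.00184). Its call at 5 µM (0.44 ± 0.16) was lost with DESeq2 (adjusted p = 0.0738) and when any of 3 libraries was left out, among them replicate 2 at 5 µM (0.24, adjusted p = 0.316).

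VIM had 14, 20 and 20 counts at 5 µM and 32, 26 and 33 counts at 10 µM iMDK, against 12, 7 and 10 under vehicle in Huh6. It was called at 10 µM (1.66 ± 0.36), a call without weight, since VIM had too few vehicle counts to pass the filter through that group. At 5 µM VIM was not called (0.86 ± 0.39, adjusted p = 0.0799). The 2 doses were not called different (0.80 ± 0.32, adjusted p = 0.0641). In that comparison 12.7% of genes were higher and 12.2% lower, 24.9% in all. SNAI2 had 20, 15 and 22 counts at 5 µM and 17, 19 and 8 counts at 10 µM, against 1, 6 and 5 under vehicle. Its calls as higher at both doses carry no weight, since only treated libraries brought it past the filter. EPCAM and CDH2 were not called at either dose, and CDH1 changed by -0.08 ± 0.02 at 10 µM. Among list genes at 10 µM, TAGLN rose by 3.01 ± 0.06, within a matrix list of 10 higher and 12 lower of 25 (median -0.05). S100A4, a calcium-binding protein linked to motility, changed by -1.79 ± 0.10, and CDH6 by -1.16 ± 0.06. Of 27 junction genes 12 rose and 8 fell (median 0.03), with CLDN4 (0.75 ± 0.04) and CLDN7 (0.68 ± 0.06) higher, and 3 of 14 epithelial regulators rose while 9 fell (median -0.32). Of 9 cadherins and catenins 0 rose and 4 fell, of 3 mesenchymal transcription factors 1 rose and 1 fell, and of 16 TGF-beta genes 7 rose and 7 fell. The hepatoblastoma markers summed to 8868 to 9202 CPM at 10 µM and 13430 to 13530 CPM under vehicle, with 19 of 19 tested genes lower, and their part was not tested.

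**Figure D4:**
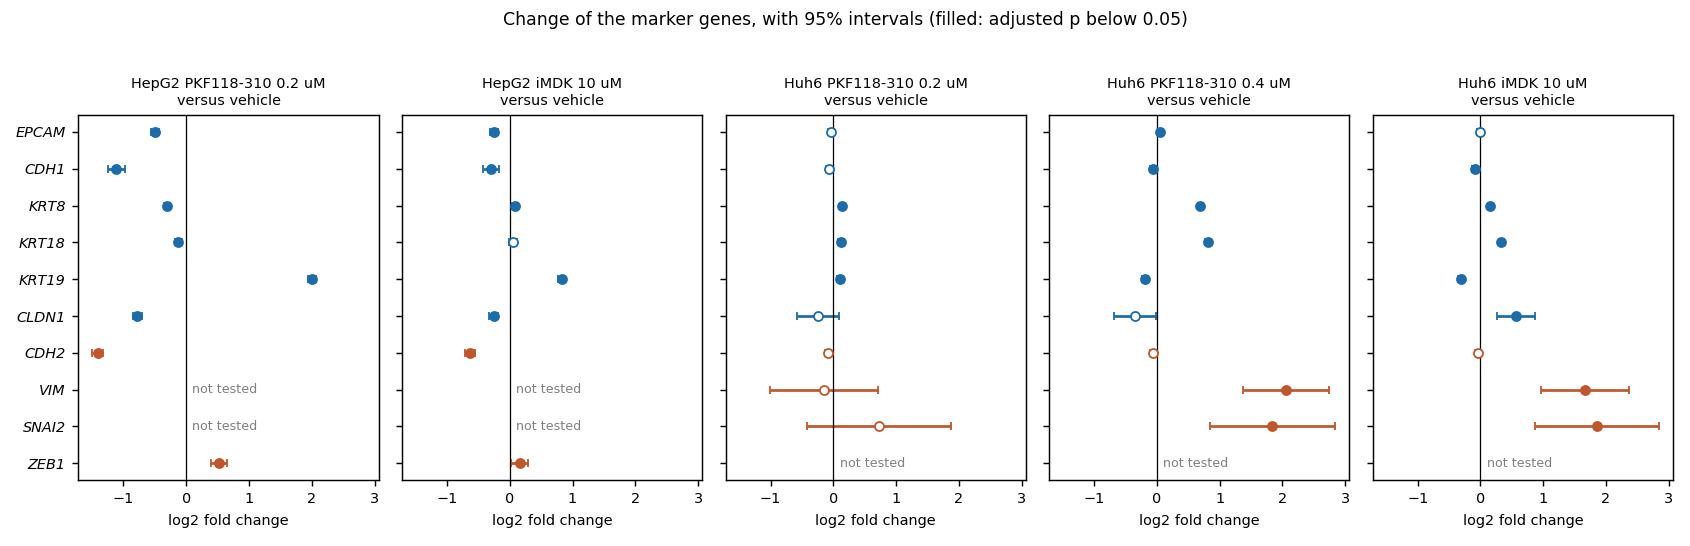
Log2 fold change against vehicle of each member in 5 comparisons, with 95% intervals and filled points where the adjusted p was below 0.05. KRT19 lies to the right in HepG2 and to the left in Huh6 at 0.4 µM PKF118-310 and at 10 µM iMDK, and CDH2 has filled points in the HepG2 comparisons and open ones in Huh6.

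The lines responded differently when the response itself was tested. Under 0.2 µM PKF118-310, the one dose of that compound with 3 libraries in both lines, 7 of 9 members differed in response, 1 higher and 6 lower in HepG2 (28.3% and 28.1% of 15438 genes, 56.3% in all). KRT19 differed by 1.90 ± 0.04 (HepG2 minus Huh6), CDH2 by -1.32 ± 0.05 and CDH1 by -1.04 ± 0.06 (adjusted p = 5.51e-37, 4.16e-27 and 4.27e-19). Under 10 µM iMDK 6 of 9 differed, 1 higher and 5 lower (21% and 20.7% of genes, 41.7% in all), with KRT19 at 1.17 ± 0.04, CLDN1 at -0.79 ± 0.12 and CDH2 at -0.56 ± 0.05. Under 5 µM iMDK 4 of 10 differed, 1 higher and 3 lower (15.6% and 17% of genes, 32.6% in all), with KRT19 at 0.94 ± 0.04. The CDH1 difference at 10 µM iMDK lost its call without HepG2 vehicle replicate 3 (-0.14, adjusted p = 0.0615), and the CLDN1 difference at 5 µM without Huh6 replicate 2 at 5 µM (-0.34, adjusted p = 0.0505). At 0.2 µM PKF118-310 the share of all genes called against vehicle was 72% in HepG2 and 2.24% in Huh6.

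Across the 31 tumour libraries, each centred on its line mean, KRT8 and KRT18 had a Pearson r of 0.934 and EPCAM and CDH2 of 0.936, while KRT19 and CDH2 had -0.967. These are descriptions over libraries that share lines and treatments. In Huh6 the group means spanned 1118 to 1192 CPM for EPCAM and 381 to 404 CPM for CDH2. In HepG2 they spanned 218 to 308 CPM and 41.1 to 109 CPM. The r of EPCAM and of KRT19 with CDH2 within each line is not given. The genes with the most similar pattern, among 8999 ranked, were ELOVL1, SP6 and ABR for KRT19 (r from 0.975 to 0.983) and BUB1, KIF2C and CEP55 for CDH2 (r from 0.983 to 0.988). The CDH2 likeness rested on HepG2, where r with BUB1 was 0.995, against 0.0475 in Huh6. KRT8 was most like ARF1, MT-RNR2 and KRT18 (r from 0.934 to 0.944), with 0.968 for KRT18 within Huh6 and 0.922 within HepG2.

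THP-1 macrophages carried VIM and ZEB1 and almost none of the other members. VIM had 2247, 2349 and 2252 CPM in macrophages alone and ZEB1 20, 15.7 and 16.4 CPM. SNAI2 had 0 counts in all 21 THP-1 libraries, and KRT19 and CLDN1 had 0 in the 3 libraries of macrophages alone. KRT8 had 17, 15 and 24 counts there, beside 247 to 314 counts on KRT8 pseudogene rows, so its level in macrophages alone is uncertain. CD68 and CYBB were at 0 in every library of both tables, macrophages included, and VTN in every group, so that their zeros are not read as absence of these markers. The 14 macrophage markers summed to 16340 to 18490 CPM in macrophages alone.

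In co-culture the epithelial members were higher in the macrophage libraries, except that CLDN1 was not called with Huh6. Replicate 1 with Huh6 stood apart from its group, with more reads of the tumour markers. EPCAM, CDH1, KRT18, KRT19, CLDN1 and CDH2 had 0 to 7 counts in all in the 3 libraries of macrophages alone, passed the filter through the co-cultures and could only be called higher. The calls, 7 of 9 higher with HepG2 and 6 of 9 with Huh6, are therefore not read against the share of all 15500 genes called, which was 21.6% with HepG2 (12% higher and 9.68% lower) and 1.83% with Huh6 (1.32% higher and 0.503% lower). Both comparisons share the macrophages alone. KRT8 had 48.1, 79.8 and 78.6 CPM with HepG2 and 99.6, 46.2 and 27.1 CPM with Huh6, against 1.06, 0.898 and 1.46 CPM alone. KRT18 had 31.2, 53.9 and 49.7 CPM with HepG2 and 68.9, 26.5 and 17.7 CPM with Huh6, against 1 count in 3 libraries alone. KRT19 had 4.97, 8.38 and 6.99 CPM with HepG2 and 37.7, 12.2 and 8.74 CPM with Huh6. It was at least 110.4-fold higher with HepG2 and at least 335-fold higher with Huh6, with 3 counts allowed over the macrophages alone. CLDN1 had 3.37, 6.86 and 6.93 CPM with HepG2, at least 92.4-fold higher, and 0, 1 and 4 counts with Huh6 and was not called there. EPCAM had 9.23, 15.6 and 12.7 CPM with HepG2 and 15.8, 6.48 and 3.31 CPM with Huh6, against 0.125, 0.0598 and 0.0607 CPM alone, and CDH1 had 4.08, 4.51 and 4.01 CPM with HepG2 and 5.56, 1.33 and 1.31 CPM with Huh6, against 0, 0 and 4 counts alone. CDH2 had 1.72, 2.22 and 2.65 CPM with HepG2 and 2.84, 0.589 and 0.551 CPM with Huh6, against 6, 0 and 1 counts alone, and was called with both lines. Its Huh6 call (adjusted p = 0.0496) was lost with RLE scaling (adjusted p = 0.0505) and when any of 3 libraries was left out, among them Huh6 co-culture replicate 1 (1.93, adjusted p = 0.459). VIM had 2416, 2449.6 and 2545 CPM with HepG2 and 2138, 2272 and 2119 CPM with Huh6 and ZEB1 had 21.9, 21.8 and 17.1 CPM with HepG2 and 16.5, 19.7 and 19.5 CPM with Huh6, and neither was called with either line.

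Hepatoblastoma markers rose in the same libraries. They summed to 2996 to 3608 CPM with HepG2 and 133.8 to 328 CPM with Huh6, against 59.5 to 75.3 CPM in macrophages alone. The macrophage markers summed to 15490 to 20690 CPM with HepG2 and 15570 to 18450 CPM with Huh6. The share of tumour reads estimated from those markers was 8.77% to 9.87% with HepG2 and 0.376% to 1.65% with Huh6, although THP-1 cells had been sorted. Replicate 1 with Huh6 stood apart, at 1.65% against 0.591% and 0.376%, and also had the highest KRT8, KRT18, KRT19 and EPCAM of its group. The share times the level in the tumour line gave an amount expected from tumour reads. With HepG2 the excess over macrophages alone was 1.1 to 1.22 times that amount for CDH1, and below it for the other epithelial members and CDH2: 0.454 to 0.697 for KRT18, 0.307 to 0.463 for KRT8, 0.339 to 0.509 for EPCAM, 0.254 to 0.477 for CLDN1, 0.164 to 0.239 for CDH2 and 0.125 to 0.188 for KRT19. With Huh6 it was 1.8 to 2.04 times for KRT18, 1 to 1.28 for KRT8, 1.09 to 1.22 for KRT19, 0.749 to 0.945 for EPCAM, 0.417 to 0.655 for CDH1 and 0.186 to 0.403 for CDH2. With the estimated tumour reads subtracted, 6 members could still be tested against macrophages alone, and EPCAM, CLDN1 and CDH2 no longer passed the filter. Of the 6, VIM was called by edgeR with HepG2 (0.32, adjusted p = 0.00289) and KRT18 with Huh6 (adjusted p = 0.00125, against 1 count in macrophages alone). VIM had 0 CPM in vehicle-treated HepG2, so the subtraction took no VIM counts while it lowered those of other genes. The VIM call is therefore not read as a change in the macrophages.

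**Figure D5:**
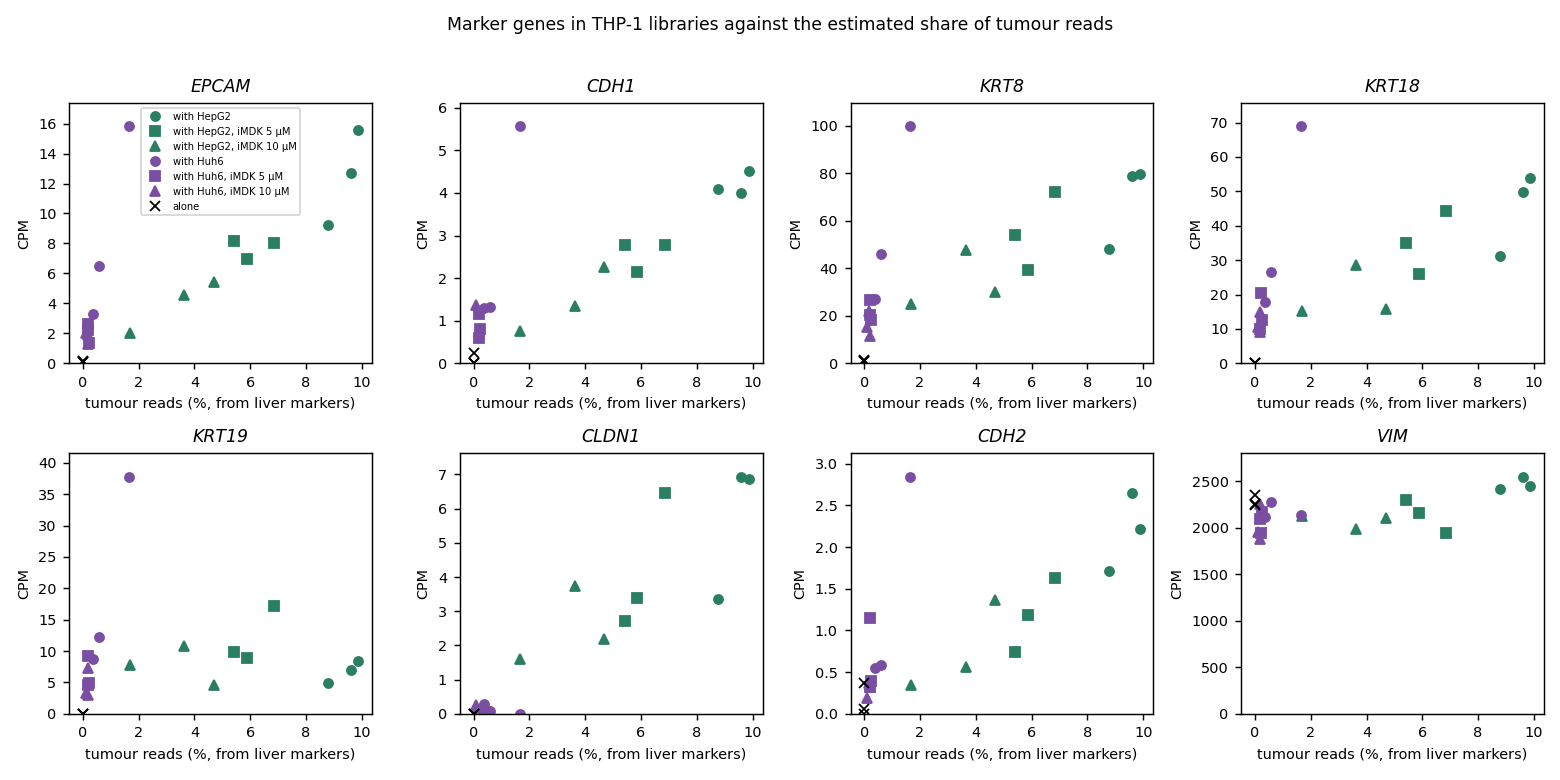
CPM of 8 members in THP-1 libraries against the share of tumour reads estimated from hepatoblastoma markers, in percent, with crosses at 0 for macrophages alone, for which no share was estimated. Among co-cultures with HepG2, EPCAM and CDH1 are lowest in the library with the lowest share, 1.68%, and VIM lies between 1883 and 2545 CPM in all 21 libraries.

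Between the co-cultures, KRT19 was lower with HepG2 than with Huh6 (-1.54 ± 0.46, adjusted p = 0.0279), where 9.13% of genes were higher and 7.55% lower, 16.7% in all. CLDN1 was called higher with HepG2, and its libraries with Huh6 held 0, 1 and 4 counts. CLDN1 passed the filter through the HepG2 co-cultures alone, so its call carries no weight. The KRT19 call was lost when any of 4 libraries was left out, most of all without Huh6 co-culture replicate 1 (-0.62, adjusted p = 0.341). Without that library EPCAM, CDH1, KRT8 and KRT18 were called higher with HepG2. With the replicate number as a block VIM was called higher with HepG2 as well (0.18, adjusted p = 0.0143).

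Where the tumour cells had been given 10 µM iMDK before co-culture, EPCAM was lower in the macrophage libraries with both lines. With HepG2 it had 5.41, 2.03 and 4.53 CPM at 10 µM and 9.23, 15.6 and 12.7 CPM without iMDK (-1.65 ± 0.39, adjusted p = 0.0203), the 1 member called of 9, lower, where 0.645% of genes were higher and 2.7% lower, 3.34% in all. That call was lost when any of 3 libraries was left out. With Huh6 it had 1.89, 1.3 and 2 CPM at 10 µM and 15.8, 6.48 and 3.31 CPM without iMDK (-2.30 ± 0.43, adjusted p = 0.0429), again the 1 member called, lower, where 0.00645% of genes were higher and 0.0516% lower, 0.0581% in all. That call was lost when any of 5 of its 6 libraries was left out. By edgeR 7 of 9 members were below an unadjusted p of 0.05 at 10 µM with HepG2 and 6 of 9 with Huh6. The share of all genes below that unadjusted p was not counted, here or at 5 µM. These counts are therefore not read as a result about the members. With HepG2 every library at 10 µM lay below those without iMDK for EPCAM, CDH1, KRT8, KRT18, CDH2 and VIM. With Huh6 this held for EPCAM, KRT8, KRT18, KRT19 and CDH2. The groups overlapped for the other tested members. The share of all genes without overlap was not counted, so this list is not read as a result about the members. The share of tumour reads was 1.68% to 4.69% at 10 µM with HepG2, against 8.77% to 9.87% without iMDK, and 0.0971% to 0.189% with Huh6, against 0.376% to 1.65% without it. With the estimated tumour reads subtracted, EPCAM no longer passed the filter. By edgeR CDH1 and KRT18 were then not called at 10 µM with HepG2 (-0.74 and 6.09, adjusted p = 0.763 and 0.202). VIM was called there (-0.40, adjusted p = 0.00168) and at 5 µM (-0.29, adjusted p = 0.0403). The subtraction took no VIM counts while it lowered those of other genes, so these calls are not read as a change in the macrophages. Beyond this the part of the tumour reads was not tested. At 5 µM the main edgeR test called 0 members with HepG2 (0.0194% of genes higher and 0.071% lower, 0.0903% in all). With Huh6 it called 0 as well (0.00645% higher and 0.00645% lower, 0.0129% in all). Below an unadjusted p of 0.05 were 1 of 9 with HepG2 and 5 of 9 with Huh6, and DESeq2 called 0 with HepG2 and 1 with Huh6. With the replicate number as a block, 7 members were called at 10 µM with HepG2, VIM among them (-0.25, adjusted p = 0.0039), and 1 each at 5 µM with HepG2 (VIM, -0.21, adjusted p = 0.0312) and with Huh6 (EPCAM, -1.98, adjusted p = 0.0371). VIM had 2162, 2299 and 1948 CPM at 5 µM and 2106, 2129 and 1989.8 CPM at 10 µM with HepG2, against 2416, 2449.6 and 2545 CPM without iMDK, and every iMDK library lay below every library without it. With the block 927 genes were called with Huh6 against alone (283 without the block), 4505 between the co-cultures (2586 without), 614 at 5 µM and 1802 at 10 µM iMDK with HepG2 (14 and 518 without) and 21 at 5 µM with Huh6 (2 without).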

How the data were processed

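Per the labels' protocols, RNA was extracted with a DNase step, and libraries were poly(A)-enriched and directional. STAR 2.7.3a, SAMtools 1.16.1, featureCounts and edgeR 3.36 are listed with GRCh38 in the submitters' processing notes. Which annotation release and which strand setting were used for counting is not stated there. The authors deposited raw read counts per gene in 2 tables, one for the tumour lines and one for THP-1. Their normalised tables of the same libraries were not used.

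The main test was the two-sided quasi-likelihood F test of edgeR 4.0.16 (R 4.3.3, limma 3.58.1) on group means. Genes were filtered with filterByExpr by group, scaled with TMM, and p-values were adjusted by Benjamini-Hochberg over all genes tested, genes below 0.05 being called. Lines were fitted separately, differences in response used 12 libraries, and the line comparison used 6. The HepG2 library at 0.3 µM PKF118-310 entered the scaling and had its own mean. SE is the size of the log2 fold change divided by the square root of F. Where a group had 0 counts, folds are bounds that allow 3 counts over the group. Intervals of 95% on sums of counts, and these bounds, cover counting error only, because no molecular identifiers were used to count molecules. The alternatives were DESeq2 1.42.0, RLE size factors, no filter, each library left out, a replicate block and subtraction of estimated tumour reads.

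No 2 replicates agreed within sampling noise. Same-numbered libraries counted as paired where every pair's deviations from the group means correlated above 0.1. That held in 5 THP-1 comparisons, namely HepG2 iMDK at 5 and 10 µM, HepG2 against Huh6, Huh6 iMDK at 5 µM and Huh6 against alone, and in 0 comparisons within a tumour line. To estimate the tumour read share, the excess of each hepatoblastoma marker over macrophages alone was divided by its level in the tumour line, for markers with 100 CPM or more there, and the median was taken.

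The members and the 10 gene lists were chosen with earlier results of these data known. All members are given, though not with values in every comparison, and of each list up to 4 called genes with the largest change could be named. Coordinates come from GENCODE 29 by symbol and promoters from RefSeq, which listed 5 of the 10 members.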

Additional observations from a re-analysis of the deposited data

Results flagged for a closer look

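The response of the lines to the same dose differed, by a test of the difference itself, for the members below, all as log2 differences HepG2 minus Huh6 from edgeR. Under 0.2 µM PKF118-310 the differences were -0.46 for EPCAM, -1.04 for CDH1, -0.44 for KRT8, -0.24 for KRT18, 1.90 for KRT19, -0.53 for CLDN1 and -1.32 for CDH2. Under 5 µM iMDK they were -0.17 for EPCAM, 0.94 for KRT19, -0.54 for CLDN1 and -0.52 for CDH2. Under 10 µM iMDK they were -0.21 for EPCAM, -0.19 for CDH1, -0.25 for KRT18, 1.17 for KRT19, -0.79 for CLDN1 and -0.56 for CDH2. KRT19 and CLDN1 had opposite signs in the 2 lines under iMDK, and KRT8 and KRT18 under 0.2 µM PKF118-310. The difference for CLDN1 at 5 µM iMDK lost its call without Huh6 replicate 2 at that dose (-0.34, adjusted p = 0.0505), and that for CDH1 at 10 µM without HepG2 vehicle replicate 3 (-0.14, adjusted p = 0.0615).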

How the results depend on the processing

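In the tumour lines, leaving out a library moved these counts by over 1.5 times: genes called under 0.2 µM PKF118-310 in Huh6 (215 to 242, against 337 with all libraries), and members called in Huh6 under 0.3 µM PKF118-310 (3 to 5, against 5) and 5 µM iMDK (3 to 5, against 5) and in HepG2 between 10 and 5 µM iMDK (1 to 3, against 2). No other tumour line count moved that far under the alternatives run there, and the replicate block, with numbers that do not pair these libraries, changed none by over 1.5 times. In 1 of the tumour line comparisons, HepG2 10 against 5 µM iMDK, every library correlated best with its own number (r from 0.026 to 0.14), which is a hint from the data and not from the design. DESeq2 called CDH2 under 0.2 µM PKF118-310 in Huh6 (adjusted p = 0.0189). The THP-1 counts moved more, in the order with Huh6 against alone (283 genes called in the main test), HepG2 iMDK 5 µM (14), HepG2 iMDK 10 µM (518), Huh6 iMDK 5 µM (2) and Huh6 iMDK 10 µM (9). Without the filter they were 689, 320, 854, 111 and 167 genes, and 1, 6, 5 and 6 members in the iMDK comparisons. With the replicate block they were 927, 614, 1802, 21 and 75 genes, and 1, 7, 1 and 4 members under iMDK. The block also gave 5118 genes with HepG2 against alone (3354 without it) and 4505 with HepG2 against Huh6 (2586 without it). With tumour reads subtracted they were 53, 413, 971, 1 and 1 genes. The members called, of 6 tested against alone, were then 1 with HepG2 and 1 with Huh6. They were 5 between the co-cultures, 1 for HepG2 iMDK 5 µM and 0 for Huh6 iMDK 10 µM. For HepG2 iMDK 10 µM the member called was VIM in place of EPCAM. That subtraction turned or took away the difference of KRT8 (-7.07), KRT18 (-1.76) and KRT19 (0) with HepG2 against alone, of CDH1 (-3.40) with Huh6 against alone, and of KRT8 (-9.39) and KRT18 (-11.04) between the co-cultures, since counts of these genes were taken away. With DESeq2 the genes called were 427 with Huh6 against alone, 149 for HepG2 iMDK 5 µM, 16 for Huh6 iMDK 5 µM and 45 for Huh6 iMDK 10 µM, and the members 2 for HepG2 iMDK 10 µM, 1 for Huh6 iMDK 5 µM and 2 for Huh6 iMDK 10 µM. Leaving out a library gave 92 to 246 genes with Huh6 against alone, 1569 to 2859 between the co-cultures (1 to 5 members), 0 to 46 for HepG2 iMDK 5 µM, 206 to 636 for HepG2 iMDK 10 µM (0 to 1 members), 0 to 25 for Huh6 iMDK 5 µM (0 to 2 members) and 0 to 62 for Huh6 iMDK 10 µM (0 to 4 members). Apart from the subtraction and the changes in which libraries or genes entered, the cause of these shifts was not tested. RLE scaling changed 1 member call, that of CDH2 with Huh6 against alone. VIM, SNAI2 and ZEB1 in the tumour lines rest on few counts wherever they are given as counts.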
